A study of Arabidopsis thaliana with 27 samples.

Results

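The genes described here encode molecular chaperones of 3 groups, measured in dormant (D) seeds of the Arabidopsis accession Cvi. They are 10 named genes, of which 5 encode cytosolic HSP70s, 3 BiPs and 2 HSP90s. The set was selected on measured values of these arrays, namely the lower level of AT3G09440 in the radicle and hypocotyl at 24 than at 12 hours after sowing (HAS) and the lower level of BIP3 in the endosperm over the same interval. Of the 10 genes, 8 were measured among the 21313 genes of the table. BIP1 (AT5G28540) and BIP2 (AT5G42020) were not analysed here, so that BIP3 stands alone for the BiP group. The array lists each gene by its locus, as AT5G02500_at for HSC70-1, AT5G02490_at for Hsp70-2, AT3G09440_at, AT3G12580_at for the gene with the symbol HSP70, AT1G16030_at for Hsp70b, AT1G09080_at for BIP3, AT5G52640_at for HSP90.1 and AT4G24190_at for HSP90.7.

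All 9 groups were D seeds of the same accession and carried no transgene, mutation or chemical treatment in their labels. One group was whole dry seeds. The other groups were seeds imbibed in water for 3, 7, 12 or 24 h and dissected. One compartment was the endosperm of the micropylar and chalazal ends (MCE), the other the radicle with the hypocotyl (RAD). Each group had 3 replicate arrays, 27 in all. The plants were grown in 3 replicates, but the labels do not tie the replicate number of an array to them, so that the tests measure the spread between arrays, which may be technical. Expression was measured on Affymetrix ATH1 arrays, and the values are log2 expression after robust multi-array averaging (RMA), in which a step of 1 is a doubling.

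HSP70 proteins hold unfolded stretches of other proteins and release them in a cycle driven by ATP, with J-domain proteins starting the cycle and nucleotide exchange factors ending it. HSP90 proteins take over many of these clients at a later stage of folding. The endoplasmic reticulum (ER) has its own pair, BiP (an HSP70) and HSP90.7 (the counterpart of animal GRP94), which work on proteins that enter the secretory pathway. Cytosolic members are known targets of heat shock factors, the ER members of the unfolded protein response, and several are stored as transcripts in dry seeds.

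Replicate arrays of a group correlated with each other at 0.987 to 0.996 across all genes, and the array medians lay between 4.595 and 4.901. A gene below 5 on the log2 scale is close to the noise of the array. As a check of the dissection, the endosperm gene EPR1 had group means of 13.65 to 13.79 in the MCE and of 6.44 to 7.27 in the RAD. The endosperm gene NCED9 was at 7.36 to 7.66 in the MCE against 5.9 to 6.39 in the RAD, MAN7 overlapped between compartments (4.32 to 8.63 against 4.33 to 6.51), and NCED6 stayed below 4 in both. Of the root genes, PLT1, PLT2 and SHR stayed below 5 in both compartments, with the higher means of PLT1 and PLT2 in the RAD (3.92 to 4.32 and 4.46 to 4.95), and SCR was at 6.59 to 8.04 in the MCE and 7.7 to 8.17 in the RAD. A column kit served to isolate RNA from the RAD and a hot borate method that from the MCE and dry seeds, so that isolation method and compartment cannot be told apart in any comparison between them. In these bulk samples a lower level in fewer cells and less transcript per cell cannot be told apart either.

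AT3G09440, the cytosolic HSP70 gene for which the set was selected, was low in dry seeds, where its arrays read 7.00, 7.31 and 6.86. Its D MCE arrays were at 11.12, 10.93 and 10.96 at 3 HAS, 12.04, 11.06 and 10.83 at 7 HAS, 10.90, 9.38 and 8.44 at 12 HAS, and 9.48, 8.22 and 8.24 at 24 HAS. Those of the D RAD were at 7.60, 8.96 and 9.05 at 3 HAS, 9.59, 9.99 and 9.11 at 7 HAS, 8.92, 8.64 and 8.88 at 12 HAS, and 5.76, 6.79 and 5.72 at 24 HAS. Every MCE array at 3 HAS lay above every dry seed and every RAD array of the same time, and the RAD arrays at 24 HAS were the lowest of all 27. Its group means spanned 5.22 on the log2 scale, a wider span than that of 99.5% of all genes. The lowest mean was that of the RAD at 24 HAS, whose arrays chose the gene, so the span and its rank are a description.

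At 3 HAS this gene was 3.94 higher in the D MCE than in whole dry seeds (15.4-fold, standard error 0.45, adjusted p = 1.24e-07 from limma). The D RAD was 1.48 higher than dry seeds (standard error 0.45, adjusted p = 0.0135 from limma), and this call was lost when the third dry seed array or the second or the third RAD array was left out (highest adjusted p = 0.0789). Imbibition and tissue cannot be told apart in either difference. The MCE exceeded the RAD by 2.47 at 3 HAS (adjusted p = 0.000104 from limma) and by 1.75 at 7 HAS (adjusted p = 0.00264). The gene then fell by 1.74 in the D MCE between 7 and 12 HAS (standard error 0.45, adjusted p = 0.0115 from limma), although the arrays of these times overlap. The 3 arrays at 12 HAS had an SD of 1.25, the widest of any measured member in any group. Without the third array at 12 HAS the difference was -1.17 (adjusted p = 0.129), and the call was also lost without the second array at 12 HAS or the first at 7 HAS. Over the whole period from 3 to 24 HAS the gene fell by 2.35 in the MCE (5.11-fold, adjusted p = 0.000154 from limma), with no overlap of arrays. The difference for which it was chosen, between 12 and 24 HAS in the D RAD, was -2.72 (6.59-fold) and is given as a description. From the MCE at 12 HAS down to the RAD at 3 HAS, most neighbouring groups in the order of means overlapped in their arrays, the RAD at 7 and 12 HAS being the exception.

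The cytosolic HSP70 gene AT3G12580, whose symbol is HSP70, was high in every group. Its arrays read 12.45, 12.39 and 12.35 in dry seeds. The D MCE had 13.19, 12.87 and 12.95 at 3 HAS, 13.96, 13.41 and 13.40 at 7 HAS, 13.07, 12.65 and 12.38 at 12 HAS, and 12.73, 12.63 and 12.56 at 24 HAS. The D RAD had 12.50, 12.45 and 12.61 at 3 HAS, 12.86, 13.21 and 13.02 at 7 HAS, 12.27, 12.26 and 12.12 at 12 HAS, and 11.52, 11.45 and 11.06 at 24 HAS. Both compartments peaked at 7 HAS, and the RAD at 12 and at 24 HAS were the groups whose arrays all lay below those of the dry seeds.

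AT3G12580 rose between 3 and 7 HAS by 0.59 in the MCE (adjusted p = 0.0062 from limma), and by 0.51 within the RAD (adjusted p = 0.016), calls that were lost without the first MCE array at 7 HAS (adjusted p = 0.0735) and without the second RAD array at 3 or 7 HAS (0.0542 and 0.0898). It then fell by 0.90 in the MCE (adjusted p = 0.000412 from limma), and by 0.82 within the RAD (adjusted p = 0.00199) between 7 and 12 HAS. From 3 to 24 HAS the RAD fell by 1.18 (standard error 0.16, adjusted p = 1.04e-06 from limma), while the MCE changed by -0.36 (95% interval -0.69 to -0.04, adjusted p = 0.0802). This MCE difference was called with array medians subtracted (-0.57, adjusted p = 0.00441 from limma) and with a replicate block (adjusted p = 0.0499). The change in the MCE minus that in the RAD was 0.81 (adjusted p = 0.0176 from limma). At 24 HAS the MCE was 1.30 higher than the RAD (2.45-fold, adjusted p = 2.14e-07 from limma), and it was between 0.48 and 0.56 higher at the earlier times, where each call was lost without at least 1 single array.

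Hsp70b (AT1G16030), a stress-inducible cytosolic HSP70 gene, was already high in dry seeds, with 10.34, 10.67 and 10.64. The D MCE had 9.73, 9.05 and 9.61 at 3 HAS, 10.59, 9.42 and 9.47 at 7 HAS, 9.90, 8.84 and 8.59 at 12 HAS, and 9.74, 8.74 and 9.12 at 24 HAS. The D RAD had 10.48, 10.49 and 10.60 at 3 HAS, 10.46, 10.81 and 10.22 at 7 HAS, 8.97, 9.17 and 8.84 at 12 HAS, and 8.36, 7.76 and 7.63 at 24 HAS. The RAD arrays at 3 and 7 HAS thus overlapped those of whole dry seeds, and no RAD array at 12 or 24 HAS reached the dry seed arrays.

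Hsp70b was 1.09 lower in the MCE at 3 HAS than in whole dry seeds (adjusted p = 0.00662 from limma). The RAD at 3 HAS differed from dry seeds by -0.03 (95% interval -0.65 to 0.60). Imbibition and tissue cannot be told apart in either difference. At 3 HAS the MCE minus RAD difference was -1.06 (adjusted p = 0.00721 from limma). This order was turned at 24 HAS, where the MCE was higher by 1.29 (2.44-fold, adjusted p = 0.00105). In the RAD the gene fell by 1.50 between 7 and 12 HAS (adjusted p = 0.00278 from limma) and by 2.61 from 3 to 24 HAS (6.10-fold, standard error 0.30, adjusted p = 8.84e-08). In the MCE the difference from 3 to 24 HAS was -0.26 (95% interval -0.88 to 0.36), and the changes of the compartments differed by 2.35 (adjusted p = 0.000452 from limma). The lower levels in the MCE at 3 HAS than in dry seeds and than in the RAD both lost their call without the second MCE array at 3 HAS (adjusted p = 0.0531 and 0.0564 from limma). Between 7 and 12 HAS the MCE differed by -0.72, which was not called over all arrays but was without the first MCE array at 12 HAS (-1.11, adjusted p = 0.0121 from limma), without replicate 1 in every group (-0.73, adjusted p = 0.035) and in a paired fit of these 6 arrays.

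HSC70-1 (AT5G02500), a constitutive cytosolic HSP70 gene, followed another course. It read 11.76, 11.73 and 11.71 in dry seeds. The D MCE had 12.39, 12.57 and 12.62 at 3 HAS, 13.82, 13.52 and 13.33 at 7 HAS, 13.55, 13.45 and 13.15 at 12 HAS, and 13.63, 13.52 and 13.18 at 24 HAS. The D RAD had 12.53, 12.71 and 12.86 at 3 HAS, 13.23, 13.47 and 13.51 at 7 HAS, 13.43, 13.64 and 13.59 at 12 HAS, and 13.36, 13.59 and 13.58 at 24 HAS. Its groups fell into 3 steps without overlap between them, which were the dry seeds, both compartments at 3 HAS, and both compartments from 7 HAS on, and neighbouring groups within a step overlapped. At 3 HAS HSC70-1 was higher than in whole dry seeds by 0.79 in the MCE and 0.97 in the RAD, where imbibition and tissue cannot be told apart. Between 3 and 7 HAS it rose by 1.04 in the MCE (adjusted p = 2.95e-06 from limma) and 0.70 in the RAD (adjusted p = 0.00031). The MCE minus RAD difference passed the threshold at no time, with -0.18, 0.16, -0.17 and -0.06 at 3, 7, 12 and 24 HAS and 95% intervals that together reached from -0.46 to 0.44.

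Hsp70-2 (AT5G02490), the neighbour of HSC70-1 with no other gene between them in the reference table, was near the noise in dry seeds, with 5.43, 5.08 and 5.45. It read between 6.77 and 7.28 in the MCE at 3 HAS and between 7.52 and 8.76 later, and between 6.40 and 7.01 in the RAD at 3 HAS and between 6.89 and 7.74 later. None of the imbibed arrays overlapped the dry seeds. At 3 HAS Hsp70-2 was higher than in whole dry seeds by 1.65 in the MCE (adjusted p = 2.42e-07 from limma) and 1.35 in the RAD (adjusted p = 6.05e-06). Imbibition and tissue cannot be told apart in either difference. Between 3 and 7 HAS it rose by 1.28 in the MCE (adjusted p = 2.02e-05 from limma) and 0.84 in the RAD (adjusted p = 0.00173). The MCE exceeded the RAD at 7 HAS by 0.74 (adjusted p = 0.00358 from limma) and at 24 HAS by 0.54 (adjusted p = 0.0303). The call at 7 HAS was lost without the first MCE array (adjusted p = 0.0537), and that at 24 HAS without any 1 of 3 arrays (highest adjusted p = 0.121). The sequences of cytosolic HSP70 genes are alike, and hybridization of 1 transcript to the probes of another was not tested.

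**Figure D1:**
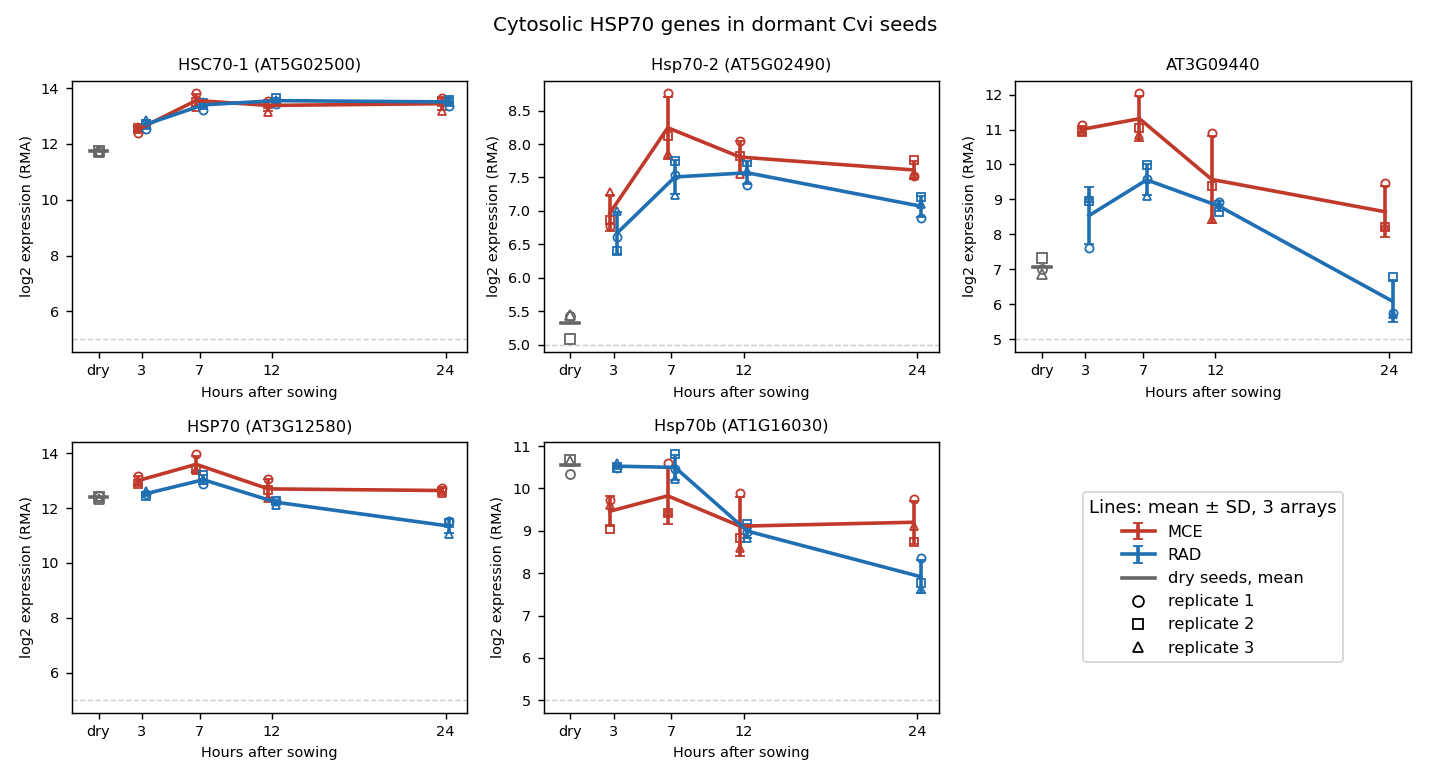
Log2 expression (RMA) of the 5 cytosolic HSP70 genes against hours after sowing, with dry seeds at the left, each array as a symbol by replicate number and lines and bars for the mean ± SD of 3 arrays in the MCE (red) and the RAD (blue). The dashed line marks 5 on the log2 scale, and axes differ between panels. AT3G09440 drops to 6.09 in the RAD at 24 HAS, whereas HSC70-1 stays above 13 in both compartments from 7 HAS on.

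BIP3, the stress-inducible BiP gene, was above 5 in its mean in 2 of the 9 groups. Its arrays read 2.74, 2.58 and 2.72 in dry seeds, and all RAD arrays lay between 2.56 and 2.87. The D MCE had 2.84, 3.04 and 2.54 at 3 HAS, 6.91, 6.84 and 6.65 at 7 HAS, 6.52, 6.90 and 6.57 at 12 HAS, and 4.87, 5.26 and 4.39 at 24 HAS. The MCE at 7 and 12 HAS stood above 5 on every array, and the MCE at 24 HAS stood between them and the remaining groups, with no overlap on either side and a mean of 4.84, also below 5.

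Between 3 and 7 HAS BIP3 rose by 3.99 in the MCE (15.9-fold, standard error 0.16, adjusted p = 7.05e-15 from limma), against -0.03 in the RAD (95% interval -0.36 to 0.31). The changes differed by 4.02 (adjusted p = 1.19e-11 from limma). At 7 HAS the MCE exceeded the RAD by 4.11 (adjusted p = 9.91e-17), whereas at 3 HAS the difference was 0.09 (95% interval -0.25 to 0.42). Because one side of these differences lies in the noise of the array, their size on the log2 scale is not precise. BIP3 is on the list of MCE-specific genes that the study drew up partly from these arrays, so that its difference between compartments is not independent of that choice. The difference for which it was chosen, between 12 and 24 HAS in the D MCE, was -1.82 and is given as a description, with the later mean below 5. At 24 HAS its mean was still 2.04 above that at 3 HAS and 2.15 above that of the RAD, with all of these means below 5. With group means under 4 raised to 4, each of these differences was 0.84. The MCE rise from 3 to 7 HAS was then 2.80 (6.95-fold). The MCE minus RAD difference at 7 HAS and the difference in change from 3 to 7 HAS were also 2.80.

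HSP90.7 (SHD in the reference table), the HSP90 of the ER, also started below 5, with 3.89, 4.14 and 3.82 in dry seeds. The D MCE had 5.91, 6.47 and 5.59 at 3 HAS, 9.79, 9.27 and 9.48 at 7 HAS, 10.53, 10.69 and 10.26 at 12 HAS, and 10.47, 10.16 and 9.77 at 24 HAS. The D RAD had 3.69, 3.48 and 4.05 at 3 HAS, 4.68, 5.45 and 5.84 at 7 HAS, 6.41, 6.91 and 6.85 at 12 HAS, and 8.18, 7.97 and 8.84 at 24 HAS. The highest RAD arrays, at 24 HAS, lay below the lowest MCE array at 7 HAS, and its span over the groups (6.75) was wider than that of 99.9% of all genes.

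HSP90.7 was 2.04 higher in the MCE at 3 HAS than in whole dry seeds (adjusted p = 7.06e-07 from limma), while the RAD differed from dry seeds by -0.21 (95% interval -0.75 to 0.33). Imbibition and tissue cannot be told apart in either difference. Between 3 and 7 HAS it rose by 3.52 in the MCE (11.5-fold, adjusted p = 2.69e-10 from limma), and by 1.58 within the RAD (adjusted p = 3.74e-05), and these changes differed by 1.94 (adjusted p = 0.00242). Between 7 and 12 HAS it rose by 0.98 in the MCE (adjusted p = 0.0136 from limma, lost without the second MCE array at 7 or 12 HAS), and by 1.40 within the RAD (adjusted p = 0.00138). Over 3 to 24 HAS the rises were 4.14 in the MCE (17.7-fold) and 4.59 in the RAD (adjusted p = 5.07e-13), with a difference between them of -0.44 (95% interval -1.21 to 0.32). The MCE was higher at every time, by 2.25 at 3 HAS, 4.19 at 7 HAS (adjusted p = 1.1e-12 from limma), 3.77 at 12 HAS and 1.80 at 24 HAS. The means of dry seeds (3.95) and of the RAD at 3 HAS (3.74) lie below 5, so that the size of every difference with them, including the differences in change between the compartments, is not precise. With group means under 4 raised to 4, the RAD rises were 1.32 and 4.33, and the differences in change were 2.20 from 3 to 7 HAS and -0.19 from 3 to 24 HAS.

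HSP90.1 (AT5G52640), the heat-inducible cytosolic HSP90 gene, was high in dry seeds, with 10.59, 10.79 and 10.76. The D MCE had 11.02, 10.94 and 10.76 at 3 HAS, 11.46, 10.57 and 10.63 at 7 HAS, 10.28, 9.56 and 8.96 at 12 HAS, and 10.15, 9.78 and 9.71 at 24 HAS. The D RAD had 10.99, 10.72 and 10.83 at 3 HAS, 10.73, 10.78 and 10.35 at 7 HAS, 9.08, 9.21 and 9.13 at 12 HAS, and 8.94, 8.57 and 8.25 at 24 HAS. All arrays up to 7 HAS lay above all arrays from 12 HAS on. HSP90.1 fell between 7 and 12 HAS by 1.29 in the MCE (adjusted p = 0.000676 from limma), and by 1.48 within the RAD (adjusted p = 0.000319). From 3 to 24 HAS it fell by 1.03 in the MCE (adjusted p = 0.0012 from limma), and by 2.26 within the RAD (4.79-fold, adjusted p = 2.08e-08), changes that differed by 1.24 (adjusted p = 0.0166). At 24 HAS the MCE was 1.30 higher (adjusted p = 7.35e-05 from limma), and at 3 HAS the difference was 0.06 (95% interval -0.43 to 0.55).

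**Figure D2:**
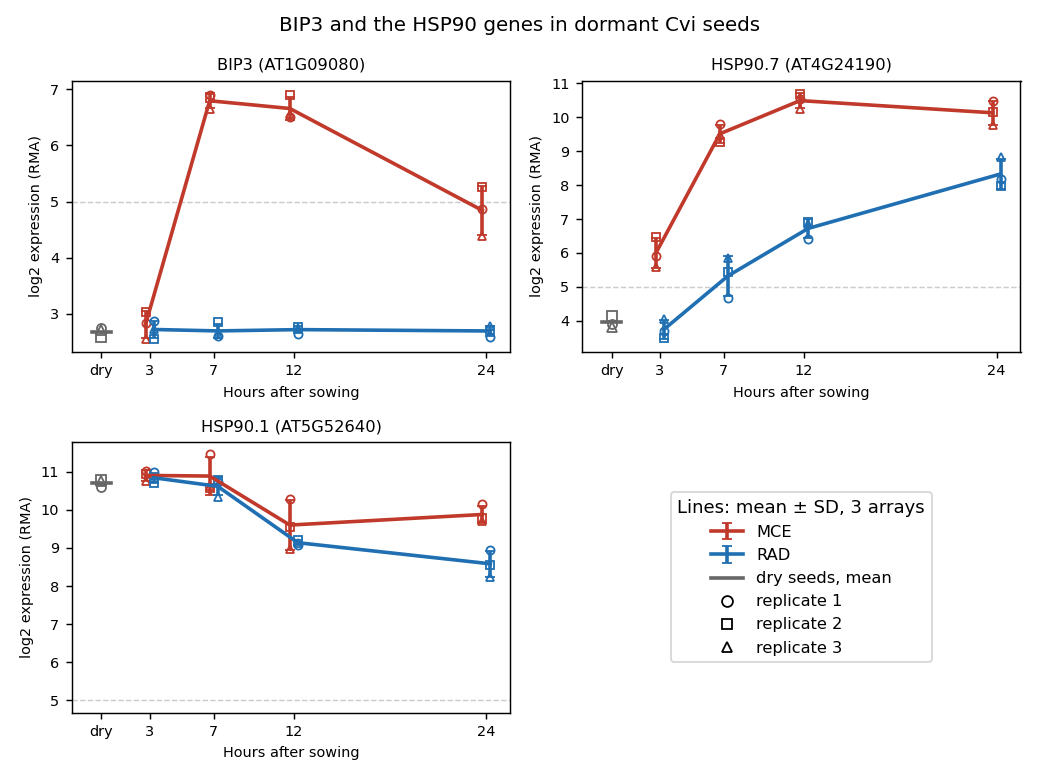
Log2 expression (RMA) of BIP3, HSP90.7 and HSP90.1 against hours after sowing, with the same symbols, lines (mean ± SD of 3 arrays) and dashed line at 5 as for the HSP70 genes, and with axes that differ between panels. BIP3 is at 6.80 in the MCE at 7 HAS and 2.69 in the RAD, and HSP90.7 climbs in both compartments to 10.13 in the MCE and 8.33 in the RAD at 24 HAS.

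Read together over time, the members went in opposite directions. Between 3 and 7 HAS 5 of 8 measured members rose in the MCE (HSC70-1, Hsp70-2, AT3G12580, BIP3 and HSP90.7), where 26.9% of all genes were called (15.2% higher and 11.7% lower). In the RAD 4 of 8 rose, against 28.6% of all genes called (14.9% higher and 13.7% lower), BIP3 being the one that rose in the MCE and not there. No member fell over this interval in either compartment.

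Between 7 and 12 HAS, 3 of 7 counted members fell in the MCE (AT3G09440, AT3G12580 and HSP90.1) and HSP90.7 rose, when 12% of all genes were called (6.42% higher and 5.62% lower). Of 7 counted in the RAD, 3 fell (AT3G12580, Hsp70b and HSP90.1) and HSP90.7 rose, when 5.09% of all genes were called (2.36% higher and 2.74% lower). A paired fit of the 6 MCE arrays, whose replicate numbers deviate together, called Hsp70b (-0.72, adjusted p = 0.00332 from limma) and Hsp70-2 (-0.44, adjusted p = 0.0414) lower as well, so that 5 fell. These counts are a description beside the shares of all genes. The set was chosen on late falls in these same arrays, and several of its members shared their deviations between arrays. With the arrays of replicate 2 left out of every group, none of the 4 RAD calls passed (adjusted p from limma 0.0604 to 0.145), although the differences kept their direction. In the MCE the same omission left 2 calls. AT3G09440 in the RAD and BIP3 in the MCE are not counted here because the 12 HAS arrays chose them.

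From 12 to 24 HAS, the interval that chose the members, none of the 7 counted members was called in the MCE, by limma or at an unadjusted p under 0.05, beside 4.27% of all genes (2.86% higher and 1.42% lower). In a paired fit of these 6 arrays 1 was, AT3G09440 (-0.92, adjusted p = 0.025 from limma). In the RAD AT3G12580 and Hsp70b were called lower and HSP90.7 higher, beside 9.98% of all genes (6.68% higher and 3.3% lower). The call of Hsp70b was lost without the first or second RAD array at 12 HAS (adjusted p = 0.0566 and 0.0786 from limma) and without the second or the third at 24 HAS (0.0696 and 0.116). From 3 to 24 HAS, 3 of 7 rose and 2 fell in the MCE (35.6% of all genes called, 18.8% higher and 16.8% lower), and 2 of 7 rose and 3 fell in the RAD (38.2% called, 20.3% higher and 17.9% lower). Of the MCE calls, Hsp70-2 was lost without the first array at 3 HAS (adjusted p = 0.0632 from limma), without the second at 24 HAS (0.0569), with replicate 2 left out of every group (0.188) and with array medians subtracted (0.0634), and HSP90.1 with replicate 2 left out (0.061). The array medians rose by 0.21 in the MCE and 0.18 in the RAD between 3 and 24 HAS. The median of all genes in the fit was -0.05 and -0.04 for the same contrasts.

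**Figure D3:**
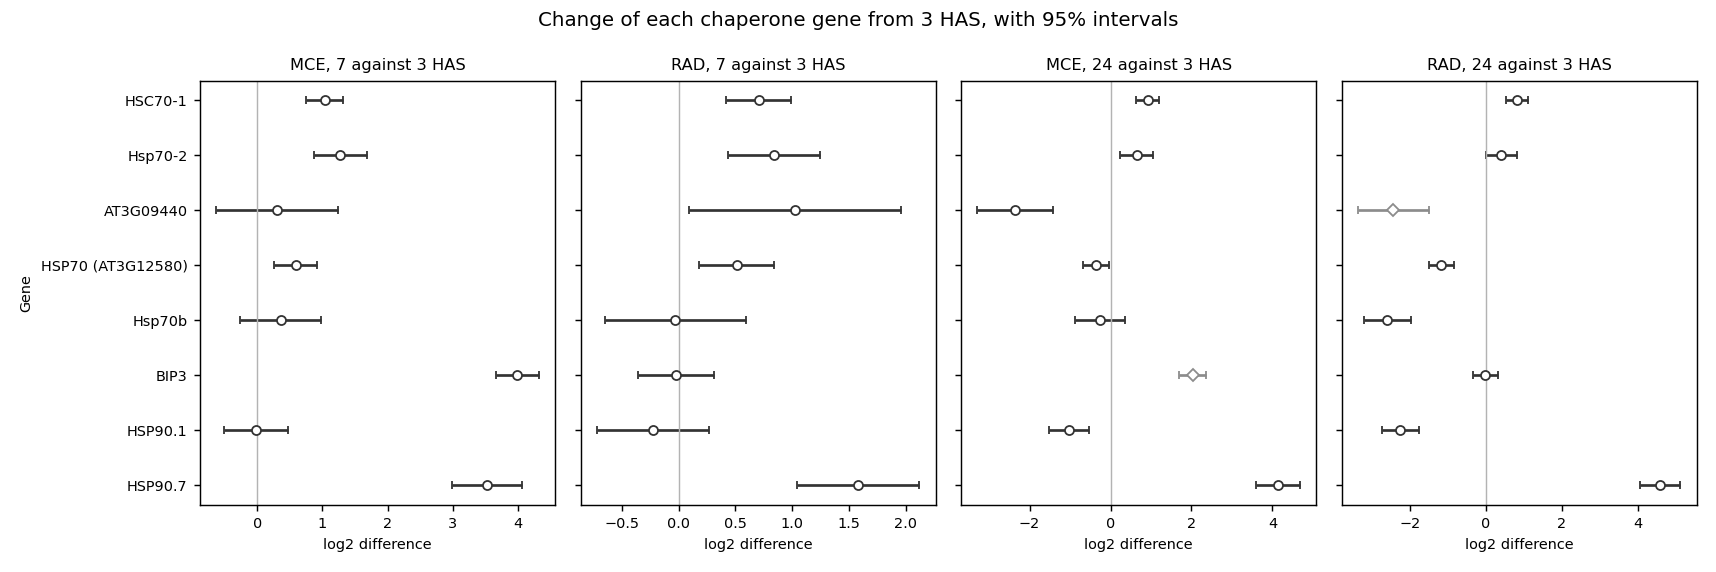
Log2 differences of the 8 measured genes at 7 and at 24 HAS against 3 HAS in the MCE and the RAD, as points with 95% intervals from limma, on horizontal axes that differ between panels. Grey diamonds are differences that use arrays for which the gene was chosen. In the RAD at 24 HAS, Hsp70b (-2.61) and HSP90.1 (-2.26) lie opposite to HSP90.7 (4.59).

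Against dry seeds, 5 of 8 measured members were higher and Hsp70b was lower in the MCE at 3 HAS, when 30.1% of all genes were called (15.2% higher and 14.9% lower). Only 3 of 8 were higher in the RAD (HSC70-1, Hsp70-2 and AT3G09440), beside 31.2% of all genes (15.6% higher and 15.6% lower). Whole seeds stand against a dissected compartment in these comparisons, so that imbibition and tissue cannot be told apart. For the RAD the isolation method differs from that of the dry seeds as well, whereas for the MCE it does not.

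Between the compartments, 3 of 8 members were higher in the MCE and 1 (Hsp70b) was lower at 3 HAS, beside 33.1% of all genes called (16.4% higher and 16.7% lower). At 7 HAS 5 of 8 were higher and none lower, beside 40.6% of all genes called (20.1% higher and 20.5% lower). Hsp70b, at -0.67 (adjusted p = 0.0807 from limma), was called lower with a replicate block (adjusted p = 0.044), with array medians subtracted (0.0364), without the first MCE array at 7 HAS (0.00595) and without replicate 1 in every group (0.000454). At 12 HAS 2 of 6 counted members were higher (AT3G12580 and HSP90.7), beside 41.7% (20.8% higher and 20.9% lower). At 24 HAS 5 of 6 were higher in the MCE, beside 39.4% (18.9% higher and 20.5% lower), and the one not called was HSC70-1. The compartments changed differently between 3 and 7 HAS for BIP3 and HSP90.7, 2 of 8 members beside 4.22% of all genes (2.49% higher and 1.73% lower). For the change from 3 to 24 HAS these were AT3G12580, Hsp70b and HSP90.1, 3 of 6 beside 11.7% (5.58% higher and 6.1% lower). Of these, AT3G12580 and HSP90.1 lost the call without the third RAD array at 24 HAS (adjusted p = 0.0641 and 0.0563 from limma), and also with replicate 2 or replicate 3 left out of every group.

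**Figure D4:**
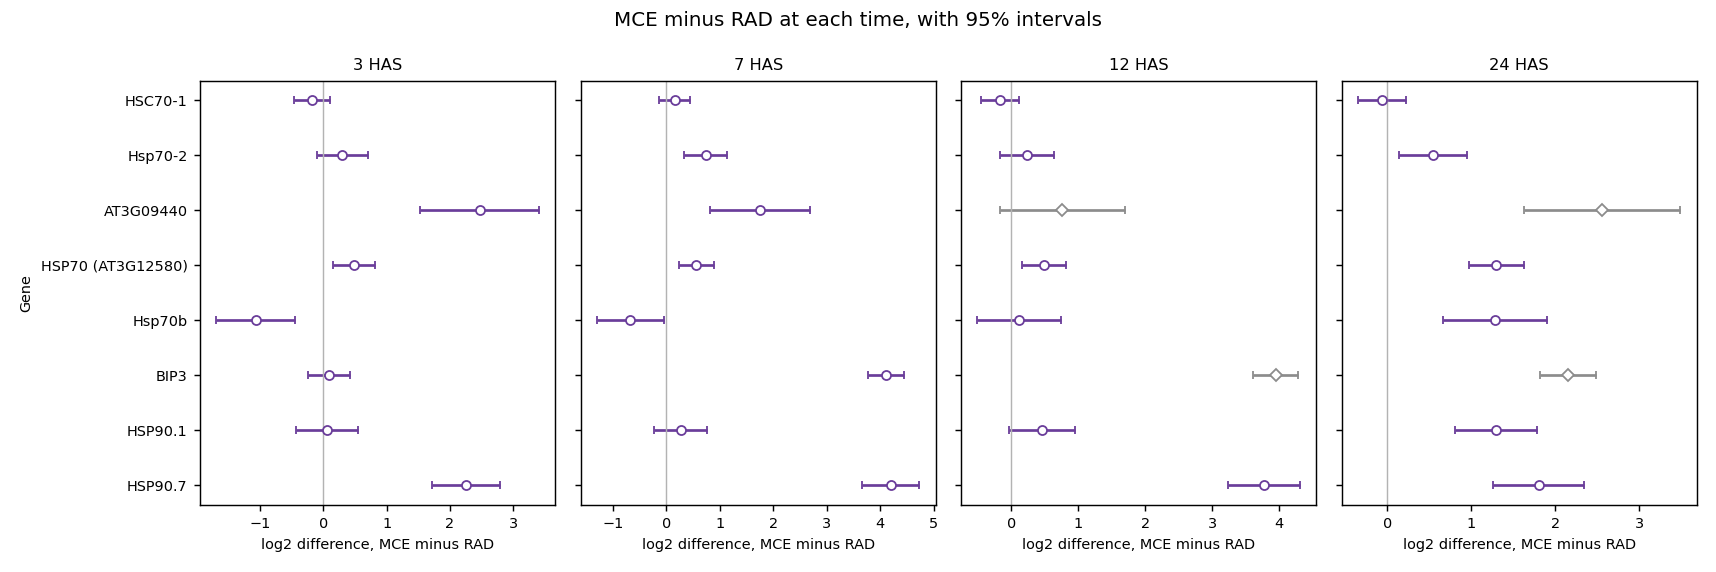
Log2 difference MCE minus RAD of the 8 measured genes at 3, 7, 12 and 24 HAS, as points with 95% intervals from limma, on horizontal axes that differ between panels. Grey diamonds are differences that use arrays for which the gene was chosen. Hsp70b moves from -1.06 at 3 HAS to 1.29 at 24 HAS, and HSC70-1 stays next to 0 throughout.

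Over the 9 group means, given as a description, HSC70-1 and Hsp70-2 correlated at 0.908, AT3G09440 and AT3G12580 at 0.899, Hsp70b and HSP90.1 at 0.866, and BIP3 and HSP90.7 at 0.797, while Hsp70b and HSP90.7 were at -0.64. The deviations of the 27 arrays from their group means were also shared, at 0.868 for Hsp70b with HSP90.1, 0.842 for AT3G12580 with HSP90.1 and 0.826 for AT3G12580 with Hsp70b. Replicate 1 of the MCE held the highest value of AT3G09440, AT3G12580, Hsp70b, HSP90.1 and HSC70-1 at 7, 12 and 24 HAS. The part of this replicate in the results was not tested beyond leaving it out. Without replicate 1 in every group, the count of members higher or lower in the MCE was 3, 4, 1 and 4 at 3, 7, 12 and 24 HAS, and the changes differed between compartments for 1 member from 3 to 7 HAS (HSP90.7 lost, adjusted p = 0.0718 from limma) and for 3 from 3 to 24 HAS.

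The genes outside the members with the pattern most like AT3G09440 over the 9 group means, among 7669 genes that span at least 1 and reach 6, were AtCDC48B (AT3G53230, Pearson's r 0.989), AT5G16010 (0.982) and AT2G18780 (0.952). AtCDC48B encodes an AAA-type ATPase of the family that extracts proteins for degradation. For BIP3 they were AT1G18830 (0.959), AT4G04790 (0.954) and AT3G15980 (0.949). Like BIP3, AT1G18830 was highest in the MCE at 7 and 12 HAS (6.57 and 6.14) and stayed below 4 in the RAD. These likenesses are a description, since the 9 means include the groups whose arrays chose AT3G09440 and BIP3. The mean of BIP3 was above 5 in 2 of the 9 groups, so its correlations rest mainly on the MCE from 7 HAS on.

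Genes of other ER folding proteins, which work beside BiP and HSP90.7, mostly rose. Of 14 ER folding genes (calnexins, calreticulins, protein disulfide isomerases, J-domain proteins and others), 12 rose and none fell in the MCE between 3 and 7 HAS, with a median difference of 1.58. Over the same interval in the RAD 8 rose and ERDJ3A fell, with a median of 0.50. Of all genes, 15.2% were called higher and 11.7% lower in the MCE over this interval, and 14.9% and 13.7% in the RAD. From 3 to 24 HAS 11 rose and 2 fell in the MCE (median 1.76), and 11 rose and 1 fell in the RAD (median 1.82), beside medians of -0.05 and -0.04 over all genes. Of all genes, 18.8% were called higher and 16.8% lower in the MCE over this period, and 20.3% and 17.9% in the RAD. The calreticulin gene CRT1a had the largest difference of the 14 genes over this period, from 4.45 to 7.94 in the RAD (3.49, adjusted p = 2.98e-12 from limma) and from 6.23 to 9.37 in the MCE (3.13). Its RAD mean at 3 HAS lies below 5, so that the size there is not precise. The gene AT4G16660, called higher in the RAD (from 2.89 to 3.75), stayed below 5 there. The genes that fell were the calnexin gene AT5G07340 in the MCE (-0.90) and the J-domain gene ERDJ3A in the MCE (-0.77) and the RAD (-0.80), named after their values were seen. All 14 genes were called higher in the MCE at 3, 7 and 12 HAS, and 12 were at 24 HAS, beside 16.4%, 20.1%, 20.8% and 18.9% of all genes called higher at these times.

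Regulators of the unfolded protein response changed in both directions. Of 8 genes, 2 rose and 4 fell in the MCE from 3 to 24 HAS, and 1 rose and 3 fell in the RAD. Those that fell in both were the ER stress sensor IRE1A (-0.47 for the MCE, -0.60 for the RAD) and the transcription factors BZIP60 (-0.74 in the MCE) and BZIP28 (-1.13 and -1.32), and BI1 (-0.48) fell in the MCE, named after their values were seen. The largest difference was that of BAG7, an ER co-chaperone, which rose by 1.44 in the MCE (adjusted p = 8.07e-11 from limma) and 1.02 in the RAD (adjusted p = 2.07e-08). Beside these counts, 18.8% of all genes were called higher and 16.8% lower in the MCE, and 20.3% and 17.9% in the RAD. NAC103, called higher in the MCE (from 3.81 to 4.45), stayed below 5.

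Of 11 measured partners of cytosolic HSP70 and HSP90 (of 13 listed), none rose from 3 to 24 HAS, while 6 fell in the MCE (median -0.48) and 7 in the RAD (median -0.62). Fes1A, a nucleotide exchange factor of HSP70, had the largest difference of those called, with a fall of 2.01 in the MCE (from 9.57 to 7.57, adjusted p = 1.89e-06 from limma) and a difference of -1.85 in the RAD (adjusted p = 4.76e-06). Among 9 measured HSP70 and HSP90 genes outside the members (of 11 listed), 4 rose and 1 fell in the MCE, and 2 rose and 2 fell in the RAD. The largest difference was a fall of 1.36 in HSP70T-2 in the RAD (adjusted p = 2.4e-09 from limma), a truncated HSP70, which fell in the MCE too (-1.09). Mitochondrial mtHsc70-1 rose in the RAD by 1.25, the one rise there above 1 among these genes, also named after its value was seen. Beside the counts of both lists, 18.8% of all genes were called higher and 16.8% lower in the MCE, and 20.3% and 17.9% in the RAD.

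Heat shock factors, which drive the transcription of HSP70 and HSP90 genes in heat, were measured for 11 of 12 listed genes. In the MCE 4 rose and 4 fell from 3 to 24 HAS, and in the RAD 2 rose and 7 fell (median -0.63). HSFA2, a factor itself induced by heat, had the largest difference, with a fall in the RAD of 3.00 from 7.74 to 4.74 (adjusted p = 2.78e-08 from limma) and in the MCE of 1.58 from 8.02 to 6.44 (adjusted p = 3e-04). HSFA4A (1.04 for the MCE, 0.93 for the RAD) and HSFA7B (1.01 and 0.84) rose in both compartments, and HSFB2B, a repressor of heat shock genes, fell in both (-1.79 and -1.88), named after their values were seen. At 24 HAS HSFA2 in the RAD (4.74) and HSFB2B in the MCE (4.85) and the RAD (3.85) were below 5. HSFA7B in the MCE was below 5 at 3 HAS (4.57). The sizes of these differences are therefore not precise. HSFA3, called lower in the RAD (from 3.71 to 3.27), stayed below 5. Beside these counts, 18.8% of all genes were called higher and 16.8% lower in the MCE, and 20.3% and 17.9% in the RAD.

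**Figure D5:**
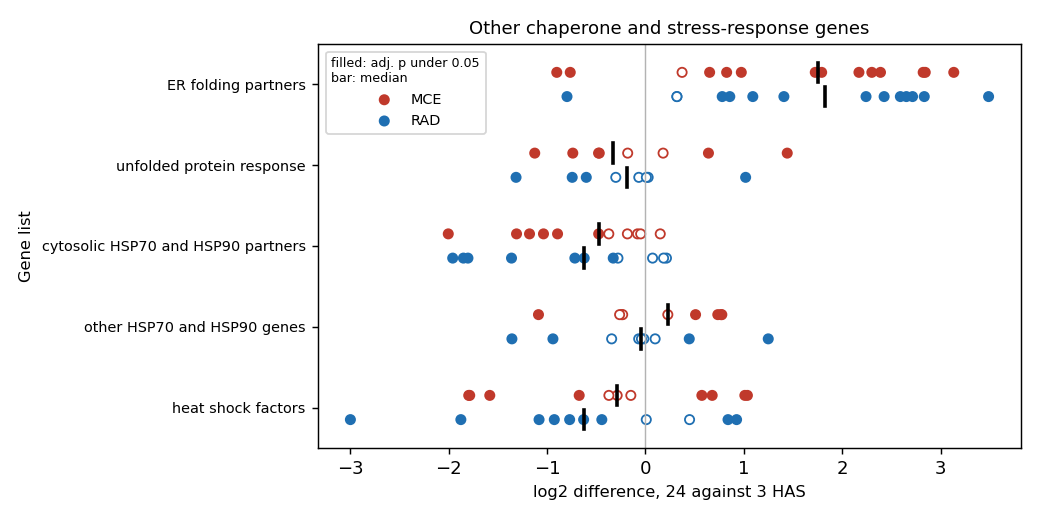
Log2 difference between 24 and 3 HAS of each measured gene (1 point) of 5 lists of related genes in the MCE (red) and the RAD (blue), filled where the adjusted p from limma was under 0.05, with the median of each list as a bar. The ER folding genes lie mostly to the right of 0 in both compartments, and the partners of cytosolic HSP70 and HSP90 lie mostly to the left.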

How the data were processed

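The deposited log2 values are the authors' RMA output, computed for these arrays jointly with others through a custom probe annotation (Ath1121501_At_TAIRG.cdf, version 18.0.0) that gives each gene 1 value. The table held 21313 genes for 27 arrays and no column outside these samples. The deposited log2 values were used without further normalization. They are relative to the other transcripts of an array, and 3 arrays per group limit their precision.

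limma was fitted to all 27 arrays in 9 groups (18 residual degrees of freedom, prior 7.246), two-sided, with p-values adjusted by the Benjamini-Hochberg method, separately in each comparison and over every gene, and a gene was called at an adjusted p under 0.05. Intervals cover 95%. In simulated data for 7 against 3 HAS in the MCE over 21313 genes, 82 of 100 genes changed by 1 (log2) and 99 of 100 changed by 2 were recovered, with 11 other genes called. The genes changed there were few and had a mean above 5 at 3 HAS, and errors were drawn independently. In the real comparison 26.9% of all genes were called and array deviations were shared, so that these rates may not hold for it. Differences of AT3G09440 with RAD arrays at 12 or 24 HAS, and of BIP3 with MCE arrays at 12 or 24 HAS, carry no p and are left out of counts, since these arrays chose the genes. All 10 members and the gene lists were chosen with earlier results of these data known. The text names all members, the gene of each list with the largest called difference from 3 to 24 HAS, and the 3 genes most like AT3G09440 and BIP3. Symbols and gene neighbours came from the RefSeq table of TAIR10.1, which matched 21205 genes and all 10 members.

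The methods of the study name a t-test at 0.05 of unstated form. It was run as an alternative, as were a limma trend, the compared arrays alone, a replicate block, a filter that kept the 11817 genes with a mean above 5, array medians subtracted, repeated quantile normalization, a 2-fold minimum after raising means to 4, and the omission of single arrays. The omission of all arrays of a replicate number, and paired fits of the 6 arrays for the intervals from 7 to 12 and 12 to 24 HAS in the MCE, were chosen after seeing the data. Replicate numbers were taken from the labels, which do not say what they share. Deviations of same-numbered arrays correlated over 0.1 for every number in 2 of 36 pairs of groups, the MCE at 7 with 12 HAS and at 12 with 24 HAS, so that by this measure the numbers pair these arrays. Fits were run in limma 3.58.1 (R 4.3.3) and summaries in pandas 2.3.3 (Python 3.11.15).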

Additional observations from a re-analysis of the deposited data

Results flagged for a closer look

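For 5 of the genes the change over time differed between the compartments by limma's test of the difference itself, given as the change in the MCE minus that in the RAD. Between 3 and 7 HAS this was 4.02 for BIP3 (adjusted p = 1.19e-11 from limma) and 1.94 for HSP90.7 (adjusted p = 0.00242), whose RAD mean at 3 HAS (3.74), like the low means of BIP3, lies in the noise, so that these sizes are not precise. Between 3 and 24 HAS it was 0.81 for AT3G12580 (HSP70, adjusted p = 0.0176 from limma), 2.35 for Hsp70b (adjusted p = 0.000452) and 1.24 for HSP90.1 (adjusted p = 0.0166). Of all genes, 4.22% were called for the difference from 3 to 7 HAS and 11.7% for that from 3 to 24 HAS. The call of HSP90.7 was lost without replicate 1 in every group (adjusted p = 0.0718 from limma). Those of AT3G12580 and HSP90.1 were lost without the third RAD array at 24 HAS (adjusted p = 0.0641 and 0.0563 from limma). They were also lost with replicate 2 or replicate 3 left out of every group. Isolation method and compartment cannot be told apart in any of these differences in change.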

How the results depend on the processing

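No difference that was called in the main fit or under an alternative changed direction between them. Direction was not followed for differences called in neither. The limma trend and the filter on dim genes changed no call. With the methods' t-test after Benjamini-Hochberg adjustment, members called fell to 3 for the MCE at 7 against 3 HAS, 0 at 12 against 7 HAS, 1 and 0 for the same intervals in the RAD, 0 for the RAD at 24 against 12 HAS, and 2 and 1 between the compartments at 7 and 12 HAS. Unadjusted, it gave 2 for the MCE at 12 against 7 HAS and 3 and 1 between the compartments at 7 and 12 HAS. The compared arrays alone gave 2 for the MCE at 12 against 7 HAS. A 2-fold minimum gave 2 there, 3 for the MCE at 24 against 3 HAS, 1 for the RAD at 7 against 3 HAS, and 3 and 1 between the compartments at 7 and 12 HAS. Subtracting array medians gave 1 between the compartments at 12 HAS.

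With a replicate block 2 calls were gained, AT3G12580 in the MCE at 24 against 3 HAS (-0.36, adjusted p = 0.0499 from limma) and Hsp70b between the compartments at 7 HAS (-0.67, adjusted p = 0.044), which raised each count from 5 to 6; it changed no other call. In the paired fits of 6 arrays, members called were 6 against 4 for the MCE at 12 against 7 HAS and 1 against 0 at 24 against 12 HAS.

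With 1 array or 1 replicate number left out, members called ranged in the MCE from 4 to 5 (7 against 3 HAS), 2 to 5 (12 against 7), 0 to 0 (24 against 12) and 3 to 5 (24 against 3), and in the RAD from 2 to 5, 0 to 4, 2 to 4 and 5 to 6 for the same intervals. Between the compartments they ranged from 2 to 4, 4 to 5, 1 to 3 and 4 to 5 at 3, 7, 12 and 24 HAS. Against dry seeds they ranged from 4 to 6 in the MCE and 2 to 3 in the RAD, and for the compartment differences in change from 1 to 2 (3 to 7 HAS) and 1 to 3 (3 to 24 HAS). Single arrays moved a count past 1.5 times in the MCE at 12 against 7 HAS (2 without its second 12 HAS array), between the compartments at 12 HAS (1 without the first MCE or the third RAD array) and in the change from 3 to 24 HAS (1 without the third RAD array at 24 HAS). Of single calls, 30 were lost and 5 gained over all omissions of 1 array, and 745 results kept theirs, and 35 were lost and 5 gained with a replicate number left out. The cause of these moves was not tested.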
